A study of Mus musculus with 20 samples.

Results

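Cycling B cells are B cells in which genes of DNA replication and mitosis are switched on. Among 97181 droplet barcodes that passed limits on depth and quality in 20 scRNA-seq libraries, 34057 were taken as B cells, and 2556 of these were taken as cycling. A barcode was kept with at least 1500 unique molecular identifiers (UMIs, each marking 1 captured RNA molecule), at least 200 genes and at most 10% of UMIs from mitochondrial genes. It was a B cell with at least 3 UMIs of Cd79a and Cd79b together (the signalling chains of the B-cell receptor), none of the T-cell genes Cd3d, Cd3e and Cd3g, and fewer than 20 UMIs of Jchain, a plasma cell gene. It was a cycling B cell where at least 2 of the 5 genes that chose the members, Mki67, Top2a, Birc5, Ccna2 and Cdk1, had a UMI. The members were thus chosen by the measured UMIs of these genes in each cell. B cells with none of the 5 genes, 29053 in all, served as non-cycling cells, and 2448 B cells with exactly 1 of them were set apart.

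The libraries hold unselected live cells of C57BL/6N mice that carried human transgenes under a VH promoter and the immunoglobulin heavy chain Eµ enhancer, which drive expression in B cells. Spleens came from 5 Eµ-PRMT5 mice (transgene Eµ-hPRMT5), 4 Eµ-TCL1 mice (Eµ-hTCL1) and 4 Eµ-PRMT5/TCL1 mice (Eµ-hPRMT5/hTCL1), and sub-mandibular lymph nodes from 3 of these Eµ-TCL1 and all 4 of these Eµ-PRMT5/TCL1 mice, so that 13 mice gave 20 libraries. PRMT5 is an arginine methyltransferase and TCL1 an oncogene, and such mice develop a disease like chronic lymphocytic leukemia (CLL). Tissues were taken when a mouse met early removal criteria, the labels give no age, and no library came from a mouse without a transgene. The mouse of Eµ-PRMT5 spleen 3 carries the number that the methods give to a transgenic founder, while the other Eµ-PRMT5 mice carry other numbers. The mouse of Eµ-PRMT5/TCL1 spleen 1 and lymph node 2 alone carries the ending RT on its number. The study uses these letters for Richter's transformation, a progression of CLL to an aggressive lymphoma. What the ending stands for was not examined, and this mouse was treated like the others.

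A cell that divides passes from rest through G1 into S phase, when DNA is copied, and then through G2 into mitosis (M). Cyclin-dependent kinases (Cdk) bound to cyclins drive these steps. E2F factors switch on the S phase genes, and a complex built around MuvB, B-Myb and Foxm1 switches on the G2/M genes. In CLL most leukemic cells in the blood are at rest, and division is known to occur mainly in proliferation centres of lymphoid tissue. Of the 5 genes of the rule, Mki67 encodes the proliferation antigen Ki-67, Top2a a DNA topoisomerase, Birc5 survivin, Ccna2 cyclin A2 and Cdk1 the kinase of mitotic entry.

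Promoters of cell cycle genes are known for short motifs, shown here because the CHR and the E2F core were found at unequal shares in lists of the 2 phases that the cycling cells pass through. The CHR element (TTTGAA or TTCGAA) is bound by the MuvB complex, the CCAAT box (CCAAT) by NF-Y, and the E2F core (TTCCCGC) by E2F factors. Each was searched on both strands of the RefSeq promoter windows of build GRCm38.p6, from 250 bases before to 50 bases after the start of transcription, and none of the motifs contains another. Windows were found for 52 of 61 genes of a G2/M list and for 36 of 49 genes of an S phase list. The CHR was present in 75.0% of the matched G2/M genes, in 19.4% of the matched S genes and in 21.7% of all 27025 genes with a window. The E2F core was present in 1.92% of G2/M genes, 44.4% of S genes and 5.29% of all genes. The CCAAT box was found in 76.9% of G2/M, 66.7% of S and 41.1% of all genes, and a CHR and a CCAAT box together in 61.5%, 13.9% and 8.61%. These shares are descriptions without a test. A match is a stretch of letters and not a shown binding site.

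Stretches of 28 bases around a CHR match are printed for the rule genes that held one and for 4 highly expressed G2/M genes, and around an E2F core for 4 S genes. They were chosen because they hold a match before the start and stand as examples of the shares above. Capitals mark the motif, and each stretch reads 5′ to 3′ on the strand of its gene.
Mki67: cgccgttttggTTTGAAtcgggcgggct
Top2a: ctagataaaggTTCAAAtgaaactaggg
Cdk1: ttaccgcggcgagTTTGAAactgctggc
Hmgb2: gactctccgggTTTGAAtaatcctccac
Tubb4b: caaatcaatcaTTTGAAacacccaatgg
Ube2c: gagggttgcaaTTCAAAcgcgggcggcg
Cks1b: cgggcggtgtgTTTGAAagcgaggccaa
Mcm7: cgctagcgaaTTCCCGCgtccactggag
Hells: ccaccgggttTTCCCGCgaaagagaagc
Rpa2: ctgtcccttcGCGGGAAggagtttgtgg
Uhrf1: gctttctcgcTTCCCGCcacagcgccag

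In GRCm38.p6 the CHR stretches lie at chr7:135716461-135716488 (Mki67, minus strand), chr11:99024196-99024223 (Top2a, minus), chr10:69352913-69352940 (Cdk1, minus), chr8:57511802-57511829 (Hmgb2, plus), chr2:25224884-25224911 (Tubb4b, minus), chr2:164769889-164769916 (Ube2c, plus) and chr3:89418292-89418319 (Cks1b, minus). The E2F stretches lie at chr5:138171362-138171389 (Mcm7, minus), chr19:38930919-38930946 (Hells, plus), chr4:132768313-132768340 (Rpa2, plus) and chr17:56303279-56303306 (Uhrf1, plus). All are upstream of the RefSeq start. In Cdk1 the motif lies 9 bases before it, in Cks1b 11, in Top2a 17, in Hmgb2 24 and in Mki67 92. No CHR match lay in the Birc5 window, and no window was used for Ccna2.

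The number of cycling B cells was very uneven, and this sets what can be compared. Eµ-PRMT5 spleens 1, 2, 3 and 5 held 9, 3, 4 and 8 of them, whereas Eµ-PRMT5 spleen 4 held 625. Eµ-TCL1 spleens 1 to 4 held 132, 48, 52 and 125, and Eµ-PRMT5/TCL1 spleens 1 to 4 held 247, 30, 80 and 534. Eµ-TCL1 lymph nodes 1 to 3 held 23, 41 and 145, and Eµ-PRMT5/TCL1 lymph nodes 1 to 4 held 57, 132, 16 and 245. The 15 libraries with at least 20 cycling B cells, 9 spleens and 6 lymph nodes, entered every comparison of genes. In these fits the Eµ-PRMT5 group was therefore 1 library and was compared with no other group. A fit of all 20 libraries, chosen after seeing the data, called 11 of 9274 genes between Eµ-PRMT5 and Eµ-TCL1 spleens (3 higher and 8 lower in Eµ-PRMT5) and 4 genes, all higher in the double transgenic spleens, against those with PRMT5 alone. It rests on spleens with as few as 3 cycling cells, and its genes are not described.

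Library depth and the gate touch every value below. Total counts lay between 9348094 and 72440894 UMIs per library, and the cycling B cells of the 15 libraries summed to between 286186 and 12786075 UMIs. The limit on Cd3g alone removed between 0.156% and 59.2% of the barcodes with Cd79a and Cd79b, the highest share in Eµ-PRMT5 spleen 4, where 1654 of 2795 were lost. In that library Ebf1, a factor that defines B cells, was at 2.66 CPM (UMIs scaled to the same total in every library and state) in cycling and 8.76 CPM in non-cycling cells, against a median of 168 and 227.6 CPM over the 15 libraries, and Ms4a1 (CD20) was at 47.7 and 172 CPM. The label B cell therefore rests on Cd79a and Cd79b, Cd37 (208 CPM) and Pax5 (20.3 CPM) there, and results that include this library are given without it where that changes them. Of 91354 distinct barcodes 5623 occurred in 2 or more libraries, and 304 cycling B cells had a barcode kept in another library. Distinct barcodes that marked cycling B cells in 2 or more libraries numbered 3. The largest overlap of 2 libraries was 86 barcodes, and 94.0% of that number is expected from their sizes.

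Defining genes of B cells were detected in the cycling cells of all 15 libraries. Over the 15 libraries the lowest, median and highest level in cycling cells was 47.7, 376 and 1489 CPM for Ms4a1 and 20.3, 56.2 and 82.9 CPM for Pax5. The medians in non-cycling cells were 710 and 63.1 CPM. The order of the states varied between libraries. Ms4a1 was at 1489 against 1418 CPM in cycling and non-cycling cells of Eµ-PRMT5/TCL1 lymph node 1, and Pax5 at 55.0 against 42.2 CPM in Eµ-TCL1 spleen 4. Cycling cells also had more UMIs, which the rule itself favours, since its genes are found more easily in a deeply sampled cell. Their median UMI count was between 1.89 and 2.86 times that of non-cycling cells in the 9 spleens (median 2.41) and between 2.09 and 2.60 times in the 6 lymph nodes. The median number of genes per cell was 3672 against 2148 in spleens and 3637 against 2080 in lymph nodes. The share of mitochondrial UMIs was 3.31% against 4.02% in spleens.

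Cells of other types could share a droplet with a B cell, and this differed between tissues. Barcodes with at least 2 UMIs of erythroid or granulocyte-monocyte markers made up between 2.06% and 50% of cycling B cells in the 9 spleens (median 21.2%), against 1.06% to 26.4% of non-cycling cells (median 10.2%), and between 0% and 5.26% of cycling cells in the 6 lymph nodes. Granulocyte-monocyte markers, of which 7 to 10 of 10 were detected in spleen cycling cells, summed to between 180 and 17411 CPM there (median 3373) and to between 36.9 and 7260 CPM in non-cycling cells (median 1264). In lymph nodes they summed to at most 572 CPM, with a median of 0.465 CPM. Erythroid markers summed to between 0.909 and 2982 CPM in spleen cycling cells and to at most 10.5 CPM in lymph nodes. T-cell markers summed to a median of 53.1 CPM in spleen cycling cells against 60.2 CPM in non-cycling cells, NK-cell markers to 7.71 against 1.98 CPM, and macrophage and dendritic markers to 75.8 against 71.7 CPM. The genes that these barcodes move are marked below by a fit without them.

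Among cycling cells 350 held 2 of the rule genes, 336 held 3, 594 held 4 and 1276 held all 5. Top2a was the most often detected, in 88.5% to 100% of cycling cells of a library (median 94.7%), followed by Mki67 (80% to 100%, median 85.6%), Birc5 (median 82.4%), Ccna2 (median 76.6%) and Cdk1 (median 69.0%). Their median levels in cycling cells were 388 CPM for Top2a, 261 CPM for Mki67, 239 CPM for Birc5, 164 CPM for Ccna2 and 120 CPM for Cdk1. These values describe the rule and were not tested.

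Genes of both phases that the rule did not use rose with the number of rule genes in a cell. Just outside the rule, in cells with 1 rule gene, S phase genes made up a median of 11.2 and G2/M genes 16.1 of 10000 UMIs, and just inside it, with 2, the medians were 28.1 and 27.5. Cells with none were at 7.77 and 15.5. From 2 to 5 rule genes the S medians were 28.1, 39.0, 46.3 and 49.3, and the G2/M medians were 27.5, 45.3, 65.6 and 87.3. The S share thus levelled off from 4 rule genes on, while the G2/M share went on rising. The median depth rose along with the number, from 6693 UMIs in cells with none to 9544, 11754, 12687, 14120 and 16955 UMIs with 1 to 5, and its part in the trend was not tested.

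**Figure D1:**
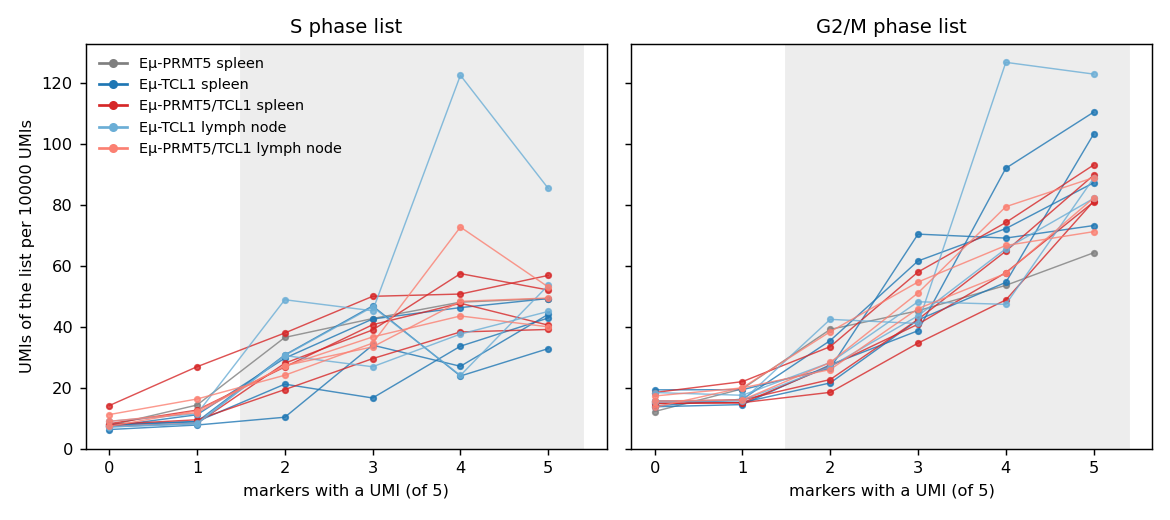
UMIs of the S phase list and of the G2/M list per 10000 UMIs of a cell group (vertical axis) by the number of rule genes detected (horizontal axis), with 1 line per library for the 15 libraries, coloured by group, and grey shading over the numbers that met the rule. The medians over libraries rise from 7.77 to 49.3 (S) and from 15.5 to 87.3 (G2/M) between 0 and 5 rule genes.

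The share of B cells that cycled was compared after each cell was thinned at random to 1500 UMIs, since 2 rule genes are found more easily in a deeply sampled cell. In Eµ-PRMT5 spleens 1 to 5 the thinned share was 0.214%, 0%, 0.115%, 23.3% and 1.08% of B cells (0.482%, 1.06%, 0.229%, 70.8% and 1.73% before thinning). The zero in spleen 2 stands for 0 of 284 B cells, for which the 95% Wilson interval reaches 1.33%. Spleen 4 stood far above the other 4 libraries, with a 95% Wilson interval of 20.7% to 26.2%.

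In Eµ-TCL1 spleens 1 to 4 the thinned share was 7.85%, 0.307%, 1.63% and 2.32% (14.6%, 0.868%, 3.69% and 4.76% before thinning). In Eµ-PRMT5/TCL1 spleens 1 to 4 it was 2.24%, 2.98%, 1.81% and 9.13% (4.74%, 9.93%, 5.36% and 20.6%). The ranges of the 3 spleen groups overlapped, and each group had 1 library far above its others. Lymph nodes varied less: 5.66%, 1.49% and 3.01% in Eµ-TCL1 nodes 1 to 3 and 5.48%, 2.63%, 2.03% and 5.99% in Eµ-PRMT5/TCL1 nodes 1 to 4.

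Free RNA in a droplet can give rule genes to a cell at rest, so the same share was taken in naive-like T cells, which had at least 3 Cd3 UMIs, no Cd79a or Cd79b and a UMI of Lef1 or Ccr7. Their thinned share was 0.438%, 0.322%, 0.0785%, 16.7% and 1.83% in Eµ-PRMT5 spleens 1 to 5. It was 2.33%, 0.174%, 0.5% and 0.117% in Eµ-TCL1 spleens 1 to 4. The double transgenic spleens 1 to 4 had 13.4%, 4.12%, 1.03% and 6.89%. In Eµ-PRMT5 spleens 1, 2 and 5 and Eµ-PRMT5/TCL1 spleens 1 and 2 the B-cell share did not exceed that of T cells and is not read as above background. Whether these T cells divided was not tested. Cd3g counted among their Cd3 UMIs, and Ccr7 is also expressed by B cells. Cd3g without Cd3d and Cd3e was found in 59.2% of the barcodes with Cd79a and Cd79b in Eµ-PRMT5 spleen 4. In Eµ-PRMT5/TCL1 spleen 2 it was found in 48.6%. Whether B cells without a captured Cd79a or Cd79b UMI entered this control was not tested. The cycling cells of Eµ-TCL1 spleen 2 and of Eµ-PRMT5/TCL1 spleens 1, 2 and 4 still entered the comparisons of genes. The background itself was imprecise in Eµ-PRMT5 spleen 4, with 24 naive-like T cells, in Eµ-PRMT5/TCL1 spleen 1, with 97, and in Eµ-PRMT5/TCL1 lymph node 1, with 25, of which 1 was cycling. In the 7 lymph nodes the share in naive-like T cells was between 0.247% and 4.00% and below the B-cell share in every node. Naive-like T cells had a median of 5114 UMIs over the 20 libraries and B cells 6991 UMIs before thinning.

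No comparison of the share between groups passed an exact two-sided permutation test over libraries. The group means were 4.95% ± 10.3 (SD, n = 5) for Eµ-PRMT5 spleens, 3.03% ± 3.32 (SD, 4 libraries) for those of Eµ-TCL1 mice and 4.04% ± 3.43 (SD, 4 libraries) for those of Eµ-PRMT5/TCL1 mice. Eµ-PRMT5/TCL1 spleens were 1.01 percentage points above Eµ-TCL1 spleens (exact p = 0.514), and Eµ-PRMT5 spleens 1.92 points above them (exact p = 0.992). The mean share in naive-like T cells was 6.36% in Eµ-PRMT5/TCL1, 0.780% in Eµ-TCL1 and 3.87% in Eµ-PRMT5 spleens, and the B-cell means include the spleens named above whose share did not exceed that of T cells. Without Eµ-PRMT5 spleen 4 the difference from Eµ-TCL1 spleens was −2.67 points, so its sign rested on that library. Eµ-PRMT5/TCL1 lymph nodes had 4.03% ± 1.99 (n = 4) and Eµ-TCL1 lymph nodes 3.39% ± 2.11 (n = 3), a difference of 0.643 points (exact p = 0.743). All adjusted p over the 5 comparisons were 1, and the smallest exact p that 4 against 4 libraries allow is 0.0286. Between the tissues of the same mouse the node was higher in 5 of 7 mice, yet the mean difference was −0.052 points (exact sign-flip p = 0.969).

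**Figure D2:**
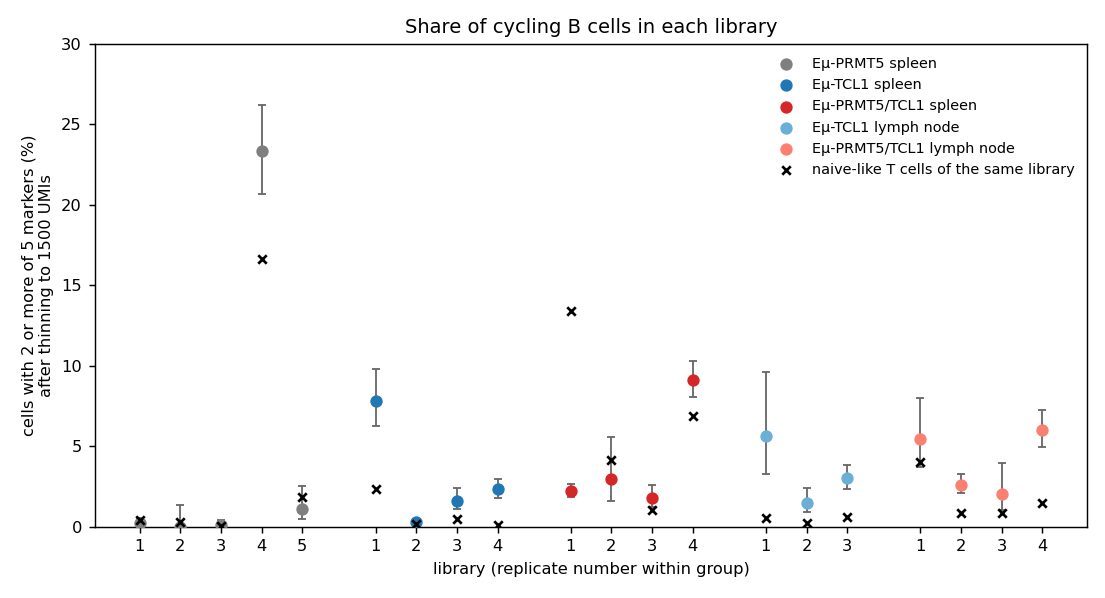
Percent of B cells that were cycling after thinning to 1500 UMIs (vertical axis) for each of the 20 libraries, ordered and coloured by group, with bars for 95% Wilson intervals and crosses for naive-like T cells of the same library. Eµ-PRMT5 spleen 4 is at 23.3%, and B cells of every other library are at 9.13% or below.

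The balance between S and G2/M genes within the cycling cells was taken as the log2 ratio of the summed UMIs of both lists, and it was negative in all 15 libraries. The lists differ in size (49 and 61 genes), and cells with none of the rule genes also had a lower median S than G2/M share. The sign therefore does not tell how the cycling cells split over the phases. It was −0.32 in Eµ-PRMT5 spleen 4. In Eµ-TCL1 spleens 1 to 4 it was −0.74, −0.93, −1.26 and −1.15, and in Eµ-PRMT5/TCL1 spleens 1 to 4 −0.85, −0.82, −0.47 and −0.54. The S share was higher relative to G2/M in Eµ-PRMT5/TCL1 spleens by 0.35 on average (−0.67 ± 0.19 against −1.02 ± 0.23, SD, n = 4 each), and the groups overlapped (exact permutation p = 0.114, adjusted p = 0.171). In lymph nodes the ratio was −0.37, −0.70 and −0.80 (Eµ-TCL1) against −0.52, −0.75 and −0.67 (Eµ-PRMT5/TCL1 nodes 1, 2 and 4), which differed by −0.02 (exact p = 0.900). The node had the higher ratio in 6 of 6 mice with both tissues, by a mean of 0.20 (exact sign-flip p = 0.031, the smallest that 6 pairs allow, adjusted p = 0.094 over the 3 comparisons).

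Cycling and non-cycling B cells were next compared gene by gene within each library, by edgeR's quasi-likelihood test on summed UMIs with the library as a block. The rule genes were left out, but the other genes were measured in the same cells that the rule had sorted, so genes of division had to move and are described rather than tested. In spleens 4193 of 9884 genes passed an adjusted p of 0.05 (42.4%), of which 2037 were higher (20.6%) and 2156 lower in cycling cells (21.8%). In lymph nodes 3242 of 9011 genes passed (36.0%), with 1613 higher (17.9%) and 1629 lower (18.1%). The direction was the same in every library for 22.1% of the genes in spleens and 30.4% in lymph nodes. Of the genes called in both tissues 2644 had the same direction and 3 the opposite. These shares are the background against which each gene group below is read. The mice of the lymph nodes also gave spleens, so the tissues are not independent samples. Levels and log2 differences are relative to all UMIs of a state, and cycling cells had more UMIs per cell. A gene said to be lower or to fall made up a smaller share of UMIs, which need not mean fewer UMIs per cell. UMIs per cell were not compared.

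The genes with the highest ratios of cycling to non-cycling cells were nearly all of mitosis and replication. Pbk (chr14:65805837-65817822, plus strand, GRCm38), a mitotic kinase, had 14.1, 38.2 and 73.6 CPM as lowest, median and highest of the 9 spleens in cycling cells and at most 0.57 CPM in non-cycling cells. Hmmr, which binds the spindle, had a median of 44.3 CPM, Cenpf, a kinetochore protein, 108 CPM, Esco2, which joins sister chromatids, 32.1 CPM, and the checkpoint kinase Bub1 23.6 CPM. Neil3, Aunip, Ska1, E2f8 and the histone genes Hist1h2af and Hist1h3b completed this group. No value of the 2 states overlapped for any of these 11 genes in spleens, and the fitted log2 differences of 7.43 to 8.95 depend on the prior count, since non-cycling cells were near 0. The rule for named genes also took Ctsg, a granulocyte protease. It was at 1.2, 21.9 and 659 CPM in cycling cells of spleens and at 0 in 5 of 6 lymph nodes, and it was too low to be tested once barcodes with erythroid or granulocyte-monocyte UMIs were left out.

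All 48 S phase genes tested in spleens were higher in cycling cells, with a median log2 difference of 2.86 against −0.04 over all genes, and so were all 49 in lymph nodes (median 2.86). Dut, which clears dUTP, had 236 CPM in cycling and 35.1 CPM in non-cycling cells of spleens (log2 2.72 ± 0.15, SE). The replication clamp Pcna had 187 and 48.6 CPM, the helicase subunit Mcm6 210 and 61.6 CPM, and the histone mRNA binder Slbp 232 and 92.0 CPM. Of 59 G2/M genes tested in spleens 58 were higher (median 4.15), and of 58 in lymph nodes 56 were higher (median 4.10). The G2/M genes that did not rise were Pttg1 in both tissues and Jpt1 in lymph nodes (0.23, adjusted p = 0.064). Pttg1 is securin, which delays the separation of sister chromatids until anaphase: its log2 difference was −0.16 in spleens, not called, and −0.68 in lymph nodes, called.

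Hmgb2, a chromatin protein, was the most abundant of the G2/M genes. In cycling cells it had 1525 CPM in Eµ-PRMT5 spleen 4, 1628, 1232, 1596 and 1509 CPM in Eµ-TCL1 spleens 1 to 4 and 1366, 1297, 1377 and 1277 CPM in Eµ-PRMT5/TCL1 spleens 1 to 4, while non-cycling cells had 99.1 to 208 CPM. Its level in cycling cells thus ran from 1232 to 1628 CPM over these spleens, with only 1 Eµ-PRMT5 spleen among them, and the states did not overlap. Ube2c, which marks cyclin B for destruction, had a median of 283 CPM against 2.49 CPM. Tubb4b (563 against 322.1 CPM) and Jpt1 (340 against 267 CPM) overlapped between the states. Among other genes of dividing cells, H2afz, a histone variant, had 2430 against 675 CPM, the tubulins Tuba1b and Tubb5 2456 against 576 and 1669 against 319 CPM, and prothymosin Ptma 4236 against 1644 CPM, and 23 of 24 genes of that list were higher in each tissue.

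**Figure D3:**
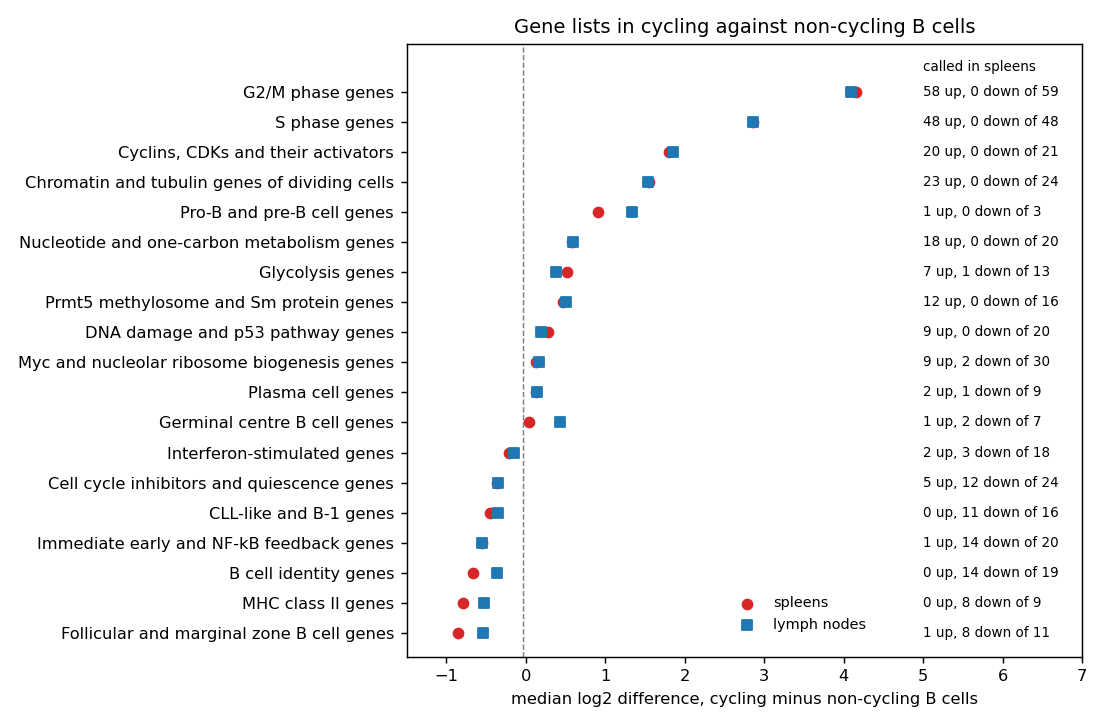
Median log2 difference of cycling minus non-cycling B cells (horizontal axis) over the tested members of each of the 19 gene lists, with circles for spleens, squares for lymph nodes, a dashed line for the median of all genes in spleens and, at the right, the members called in spleens. The medians run from 4.15 for G2/M genes to −0.86 for follicular and marginal zone genes in spleens.

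Of the cyclins, kinases and their activators 20 of 21 tested genes were higher in cycling cells of spleens and 18 of 20 in lymph nodes. The kinase of G1, Cdk4, had 479 CPM in Eµ-PRMT5 spleen 4, 304, 336, 353 and 334 CPM in Eµ-TCL1 spleens and 252, 294, 357 and 606 CPM in Eµ-PRMT5/TCL1 spleens, against 122 to 338 CPM in non-cycling cells, and was higher within every library (log2 1.07 ± 0.10). Cyclin E1 (Ccne1) differed by 2.24, cyclin B2 (Ccnb2) by 6.46 and the factors E2f1, Foxm1 and Mybl2 (B-Myb) by 2.61, 5.30 and 5.44. The D cyclins, which couple growth signals to G1, did not move in this way. Ccnd2 had 101 against 114 CPM (log2 −0.13 ± 0.11, adjusted p = 0.38), and Ccnd3 had 102.6 against 75.0 CPM (0.39 ± 0.14, adjusted p = 0.034). The call of Ccnd3 was lost without barcodes with erythroid or granulocyte-monocyte UMIs (0.20, adjusted p = 0.20) and in 8 of 17 alternative settings in all (adjusted p up to 0.24), and in lymph nodes it was −0.12 (adjusted p = 0.55).

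Of 24 tested inhibitors of division and quiescence genes 5 rose and 12 fell in spleens (median log2 −0.37), and 4 rose and 14 fell in lymph nodes (median −0.35). Of all genes 20.6% rose in spleens and 17.9% in lymph nodes, and the shares of risen members were close to these. Those that fell included Klf2, which keeps lymphocytes at rest. Klf2 was lower in cycling cells of every library, with 139 against 439 CPM in Eµ-PRMT5 spleen 4 and 196, 261, 160 and 153 against 425, 681, 210 and 270 CPM in Eµ-TCL1 spleens 1 to 4 (log2 −1.02 ± 0.13 over the 9 spleens, adjusted p = 2.2e-05, and −1.10 in lymph nodes). Btg1 and Btg2, which hold back proliferation, fell by 0.79 and 0.96 on the log2 scale in spleens, Tsc22d3 by 1.25 and Pik3ip1, an inhibitor of PI3K, by 1.48. Cdkn1b (p27) fell by 0.51 and Foxo1 by 0.55.

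Members that rose are given as values only. Cdkn2c (p18) had 24.4 against 3.30 CPM in spleens (log2 3.64 ± 0.47), Rbl1 (p107) 31.8 against 7.26 CPM (2.06 ± 0.12) and Cdkn2a 15.99 against 4.95 CPM (1.82 ± 0.24), and all 3 rose in lymph nodes too. Cdkn1a (p21) was higher in cycling cells of all 9 spleens, with 84.5 against 60.1 CPM in Eµ-PRMT5 spleen 4, 62.6, 53.9, 169 and 172 against 36.8, 37.5, 22.9 and 118 CPM in Eµ-TCL1 spleens and 43.1, 161, 58.4 and 30.6 against 31.1, 66.0, 27.1 and 17.2 CPM in Eµ-PRMT5/TCL1 spleens (0.92 ± 0.18, adjusted p = 0.0010). In lymph nodes its log2 difference was −0.05 (adjusted p = 0.82). The difference between tissues was not tested.

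Of 20 tested genes of the DNA damage and p53 list 9 rose, none fell and 11 did not pass in spleens (median 0.28), and 8 rose, 2 fell and 10 did not pass in lymph nodes (median 0.19). Brca1, which acts in DNA repair, differed by 4.14 and the checkpoint kinase Chek1 by 3.70 in spleens. Both genes are also known as genes of S phase. Trp53 had 137 against 124 CPM (0.14 ± 0.08, adjusted p = 0.22), and its targets Mdm2 (0.07) and Bax (0.09) were not called either, whereas Cdkn1a was called as given above.

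Genes that define B cells made up a smaller share of UMIs in cycling cells. Of 19 identity genes 14 fell and none rose in spleens (median −0.67), and 10 fell and none rose in lymph nodes (median −0.36). Cd74, the chain that escorts MHC class II, had 3513 against 13658 CPM in Eµ-PRMT5 spleen 4 and was lower within every library (10882 against 18315 CPM on average in spleens, log2 −0.89 ± 0.15, adjusted p = 0.00022). Ms4a1 fell by 0.81, Cd37 by 0.67 and Bank1 by 0.84 in spleens. The lineage factor Pax5 had 55.5 against 63.0 CPM (−0.17 ± 0.11, adjusted p = 0.25), and Cd24a and Ly6d were not called in either tissue. Of 9 MHC class II genes 8 fell in spleens (median −0.79) and 7 in lymph nodes (median −0.53), among them H2-Eb1 (1698 against 2939 CPM, −0.94 ± 0.17) and H2-Ob (−1.30 ± 0.18). Their activator Ciita fell by 0.61 in spleens, and in lymph nodes it was at −0.08 (adjusted p = 0.69).

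Most genes of the follicular and marginal zone list, which holds some homing receptors, fell as well. Of 11 follicular and marginal zone genes 8 fell and 1 rose in spleens (median −0.86), and 8 fell in lymph nodes (median −0.54). S1pr1, the receptor that guides exit from lymphoid tissue, had 16.6 against 41.4 CPM in Eµ-PRMT5 spleen 4, 25.5, 35.9, 67.4 and 22.7 against 104, 138, 45.5 and 61.4 CPM in Eµ-TCL1 spleens and 92.6, 20.5, 41.9 and 199 against 161, 105, 86.3 and 296 CPM in Eµ-PRMT5/TCL1 spleens. It was lower in 8 of 9 spleens, Eµ-TCL1 spleen 3 being the exception (−1.16 ± 0.20, adjusted p = 0.00032). The chemokine receptors Ccr7 and Cxcr5 fell by 0.98 and 1.00 in spleens. In spleens without barcodes with erythroid or granulocyte-monocyte UMIs 7 members fell and none rose.

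Of 16 tested genes linked to CLL-like and B-1 cells 11 fell, none rose and 5 did not pass in spleens (median −0.45), and 7 fell, 1 rose and 8 did not pass in lymph nodes (median −0.35). S100a6 fell by 0.94 in spleens and 1.59 in lymph nodes, Ahnak by 0.83 and 0.79, Cd9 by 0.49 and 0.50. Cd5, whose protein marks these leukemias, had 21.8 CPM in cycling cells of Eµ-PRMT5 spleen 4, 20.7, 13.2, 11.9 and 32.3 CPM in Eµ-TCL1 spleens and 43.3, 8.56, 39.0 and 44.4 CPM in Eµ-PRMT5/TCL1 spleens. Its difference of −0.37 ± 0.13 (adjusted p = 0.035) was lost without barcodes with erythroid or granulocyte-monocyte UMIs (−0.22, adjusted p = 0.14), and in lymph nodes it was −0.04. Cd69, an activation marker, differed by −0.45 ± 0.17 in spleens (adjusted p = 0.049) and −0.40 in lymph nodes (adjusted p = 0.097). The spleen calls of Cd5 and of Cd69 were each lost in 10 of 17 alternative settings, with adjusted p up to 0.67 and 0.57. The heavy chain of IgM, Ighm, was at −0.07 in spleens and was not called.

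Genes of other B-cell stages could be tested to unequal extents. In spleens these were 7 of 13 germinal centre, 3 of 13 pro-B and pre-B and 9 of 10 plasma cell genes. Mef2b, a germinal centre factor, rose by 0.72 ± 0.18 in spleens (180 against 119 CPM, adjusted p = 0.0048) and by 0.84 in lymph nodes, whereas Neil1 and Efnb1 of the same list fell in spleens, and 1 of 7 tested members rose. Of 3 tested pro-B and pre-B genes Myb rose (33.9 against 11.9 CPM, log2 1.53 ± 0.15). Vpreb3 differed by 0.90 (adjusted p = 0.16), and passed without Eµ-PRMT5 spleen 4 (1.28, adjusted p = 0.041) and without erythroid or granulocyte-monocyte barcodes (1.11, adjusted p = 0.037). Of 9 plasma cell genes Creld2 and Derl3 rose and Txndc5 fell in spleens, and Xbp1, Irf4 and Prdm1 were not called there. The call of Txndc5 was lost in 9 of 17 alternative settings (adjusted p up to 0.39) and that of Creld2 in 5 of 17 (up to 0.46). Of 18 interferon-stimulated genes 2 rose and 3 fell in spleens, and 2 of 12 rose in lymph nodes.

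**Figure D4:**
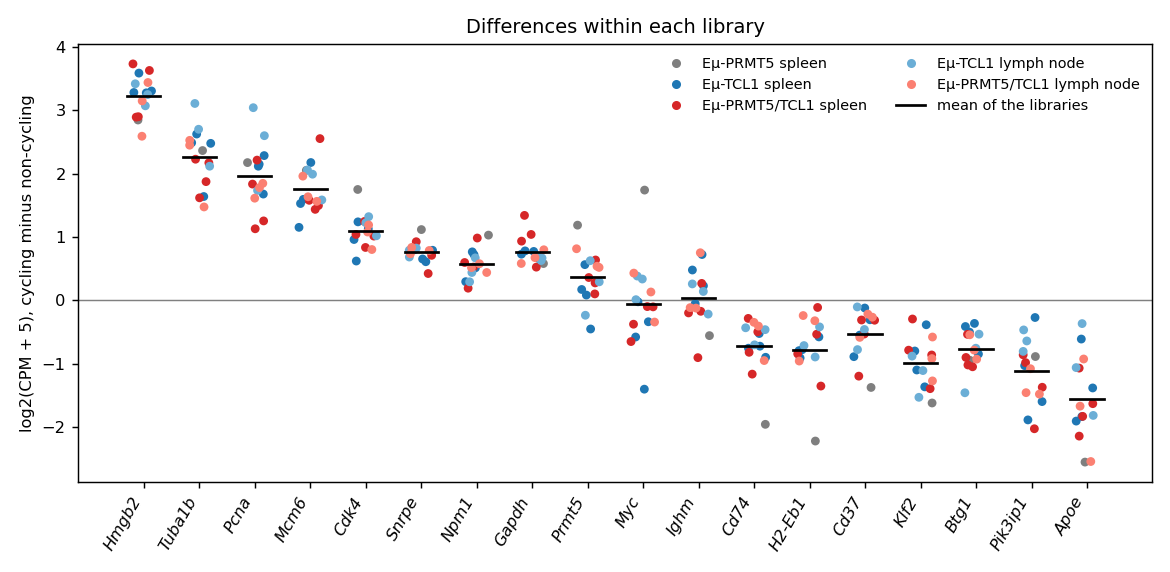
Difference of log2(CPM + 5) between cycling and non-cycling B cells (vertical axis) for 18 genes, 1 point for each of the 15 libraries, coloured by group, and a black bar for the mean of the libraries. All points of Hmgb2 and Cdk4 lie above 0 and all of Cd74 and Klf2 below it, while those of Myc and Ighm lie on both sides.

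Immediate early genes, which follow receptor signals within minutes, made up a smaller share of UMIs in cycling cells. In spleens 14 of 20 tested members fell and 1 rose (median −0.56), and in lymph nodes 13 of 19 fell (median −0.55). Fosb fell by 1.10 and 1.94 in the 2 tissues, Zfp36 by 0.86 and 1.13 and Junb by 0.57 and 0.83. Ier3 rose by 1.24 in spleens and was not tested in lymph nodes.

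Of 20 genes of nucleotide and one-carbon metabolism 18 rose in spleens (median 0.58) and 17 in lymph nodes (median 0.60), against the 20.6% and 17.9% of all genes that rose. Shmt2 and Mthfd2, enzymes of mitochondrial folate metabolism, had 159 against 77.6 and 287 against 155 CPM (0.98 ± 0.11 and 0.87 ± 0.09), and Impdh2, of guanine synthesis, 314 against 187 CPM. Of 13 glycolysis genes 7 rose, 1 fell and 5 did not pass in spleens, and 6 of 12 rose in lymph nodes. In spleens Pgk1 differed by 0.98 and Pkm by 0.85, with Gapdh at 3945 against 2316 CPM. The glucose transporter Slc2a1 fell in both tissues (35.0 against 60.3 CPM in spleens, −0.79 ± 0.10), and Hk1 and Gpi1 were not called.

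Sm proteins form the core of the spliceosome, and some of them are methylated by PRMT5. Of 16 genes of the PRMT5 methylosome, Sm proteins and Sm-like (Lsm) proteins 12 rose and none fell in spleens (median 0.47), and 13 rose in lymph nodes (median 0.50). The list is not a list of PRMT5 substrates. Lsm2 had 196 against 63.9 CPM (1.55 ± 0.10), Snrpd1 277 against 135 CPM (0.94 ± 0.09) and Snrpe 454 against 262 CPM (0.72 ± 0.08). Of the methylosome itself Clns1a (pICln) rose by 0.35 in each tissue, while the PRMT5 partner Wdr77 (0.06 and 0.24), Riok1 and Coprs were not called.

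Mouse Prmt5, which a mouse reference counts apart from the human transgene as far as their sequences differ, was low in all cells. In cycling cells it had 44.9 CPM in Eµ-PRMT5 spleen 4, 22.3, 15.6, 26.4 and 21.8 CPM in Eµ-TCL1 spleens 1 to 4 and 28.8, 30.8, 28.9 and 36.7 CPM in Eµ-PRMT5/TCL1 spleens 1 to 4. In non-cycling cells of the same libraries it had 16.9 CPM, 19.2, 23.1, 16.3 and 20.3 CPM, and 22.9, 18.04, 21.4 and 33.9 CPM. It was higher in cycling cells of 8 of 9 spleens, by 0.33 ± 0.13 (adjusted p = 0.050, just above the threshold), and in lymph nodes it rose by 0.59 ± 0.13 (5 of 6 nodes, adjusted p = 0.0021). Without Eµ-PRMT5 spleen 4 the spleen difference was 0.22 (adjusted p = 0.099), and it passed without erythroid or granulocyte-monocyte barcodes (0.37, adjusted p = 0.031) and with Cd3g free (0.37, adjusted p = 0.018). The human transgene ends in the 3′ untranslated region of human β-globin, and the libraries were made from the 3′ end of RNA. How far UMIs of the human transgene were counted as Prmt5 was not tested, and Prmt5 is not read here as its level.

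Of 30 genes of the Myc and ribosome list 9 rose and 2 fell in spleens (median 0.13), where 20.6% of all genes rose, and 11 rose and 2 fell in lymph nodes (median 0.16), where 17.9% of all genes rose. Both shares of risen members were above those of all genes, with no test of the difference. Npm1 (nucleophosmin) had 1696 against 1094 CPM (0.58 ± 0.10), Srm, of polyamine synthesis, 155 against 81.4 CPM (0.81 ± 0.19), and the snoRNP protein Nhp2 223 against 144 CPM (0.53 ± 0.10). Myc itself was not called. It had 99.4 against 26.3 CPM in cycling and non-cycling cells of Eµ-PRMT5 spleen 4, and was lower in cycling cells of all the other spleens, with 109, 47.9, 59.4 and 66.8 against 139, 74.0, 165 and 68.0 CPM in Eµ-TCL1 spleens and 138, 51.3, 109 and 442 against 181, 83.5, 118 and 474 CPM in Eµ-PRMT5/TCL1 spleens. Over all 9 the difference was −0.24 ± 0.21 (adjusted p = 0.39), without Eµ-PRMT5 spleen 4 it was −0.43 (adjusted p = 0.019), and in lymph nodes it was 0.14 (adjusted p = 0.35). The partner gene Max fell in both tissues (−0.35 and −0.27).

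By the rule for named genes, those with the lowest ratios in spleens were Kdm5b, Apoe, Gnb3, Phf1, Tcp11l2, Gng13, Acp5, Ephx1, Pik3ip1, Nt5e, Gimap3 and Snhg18, with log2 differences from −1.80 to −1.38. The rule asked for the same direction in every spleen. In lymph nodes their differences were between −2.12 and −0.95. Kdm5b, a histone demethylase of active promoters, had 0.235 CPM in cycling cells of Eµ-PRMT5 spleen 4, 2.12, 5.99, 9.25 and 28.2 CPM in Eµ-TCL1 spleens and 9.15, 8.56, 4.13 and 4.77 CPM in Eµ-PRMT5/TCL1 spleens, against 2.33 CPM, 13.1, 25.4, 34.3 and 52.5 CPM, and 42.0, 17.01, 15.9 and 19.1 CPM in non-cycling cells (−1.80 ± 0.18). The states overlapped across mice. Phf1, a partner of the Polycomb complex PRC2, fell by 1.70, Apoe (apolipoprotein E) by 1.76 and Nt5e (CD73, which makes adenosine) by 1.40.

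These counts depend on how the states were fitted. Without the library as a block the called genes fell from 4193 to 1556 in spleens and from 3242 to 802 in lymph nodes. In spleens 48 S phase and 57 G2/M genes were then called, whereas 2 of 19 B cell identity genes, 1 of 9 MHC class II genes and no immediate early gene fell in spleens, and 4 of 16 methylosome and Sm genes and none of the ribosome list rose. After thinning every cell to 1500 UMIs 1585 genes were called in spleens, with 12 of 19 identity genes, 8 of 9 MHC class II genes and 8 of 16 immediate early genes fallen and 11 of 15 methylosome and Sm genes risen. Without barcodes with erythroid or granulocyte-monocyte UMIs these counts were 13 of 19, 8 of 9, 13 of 19 and 13 of 16. In the thinned fit the states were still those set at full depth, so depth still entered the choice of cells.

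Immunoglobulin variable genes, which the rule did not use, were compared to ask whether cycling cells carried the leading gene of each library. A B-cell clone expresses 1 rearranged heavy chain variable gene (Ighv), so a clone that fills the tissue gives most Ighv UMIs to 1 gene. Different clones can use the same gene, so a shared Ighv gene does not by itself show 1 clone. The leading gene of non-cycling cells was also the leading gene of cycling cells in 14 of 15 libraries. Its share of Ighv UMIs in cycling against non-cycling cells was 99.99% against 75.1% in Eµ-PRMT5 spleen 4 (Ighv12-3). Counted there as a share of cells with 3 or more Ighv UMIs, it was 100% against 98.4%. In Eµ-TCL1 spleens 1, 2 and 4 it was 99.98% against 99.3% (Ighv1-55), 96.0% against 94.2% (Ighv12-3) and 98.7% against 99.0% (Ighv12-3). In Eµ-PRMT5/TCL1 spleens 1 to 4 it was 65.2% against 62.8% (Ighv8-2), 98.7% against 98.2% (Ighv5-9-1), 95.8% against 86.6% (Ighv1-9) and 95.6% against 84.5% (Ighv1-52). Cycling and non-cycling cells thus shared 1 dominant V gene in these mice, and the cycling cells held the larger share in 7 of the 9 spleens by UMIs and in 5 of 9 by cells. The leading light chain variable gene (Igkv) varied more, counted over cells with 3 or more Igkv UMIs. In Eµ-TCL1 spleen 1 it led in 100% of cycling and 99.2% of non-cycling cells (Igkv12-89). In Eµ-TCL1 spleen 4 it led in 50.4% and 45.9% (Igkv4-91).

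Eµ-TCL1 spleen 3 was the exception. Ighv1-26 led the non-cycling cells with 41.4% of Ighv UMIs and made up 7.13% in the cycling cells, which were led by Ighv11-2. By cells with 3 or more Ighv UMIs the shares were 32.2% and 15.4%. The light chains went the same way: Igkv3-5 was at 40.2% in non-cycling and 4.17% in cycling cells, and Igkv14-126 led the latter. Over the 9 spleens the mean share was 84.1% in cycling and 82.3% in non-cycling cells, a difference of 1.78 points (exact sign-flip p = 0.641). Over cells it was −0.920 points (exact sign-flip p = 0.688). Without Eµ-TCL1 spleen 3, left out after its value was seen, the difference by UMIs was 6.28 points, given with no test. In the 6 lymph nodes it was 93.7% against 88.9%, a difference of 4.73 points with 5 of 6 nodes higher (exact sign-flip p = 0.094, where 6 pairs allow 0.031). In all 6 mice with both tissues fitted, the cycling cells of node and spleen were led by the same Ighv gene.

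**Figure D5:**
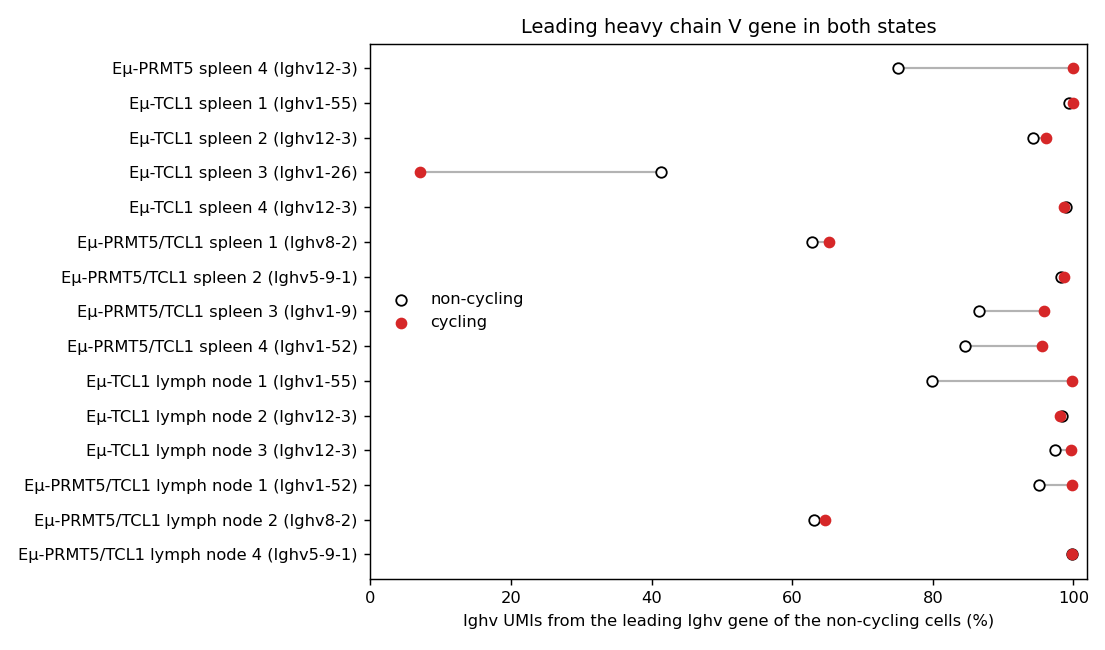
Percent of Ighv UMIs from the leading Ighv gene of the non-cycling cells (horizontal axis) in each of the 15 libraries (rows, with the gene in brackets), open circles for non-cycling and red for cycling B cells. In Eµ-TCL1 spleen 3 the cycling cells are at 7.13% and the non-cycling cells at 41.4% of UMIs, where shares of cells were 15.4% and 32.2%, and in Eµ-PRMT5 spleen 4 they are at 99.99% and 75.1% of UMIs, where shares of cells were 100% and 98.4%.

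Between genotypes, the cycling B cells of Eµ-PRMT5/TCL1 and Eµ-TCL1 spleens differed in no gene after adjustment. Of 10745 genes tested 0 passed in edgeR (0.0%), 715 had an unadjusted p under 0.05 and DESeq2 called 8, while 448 genes (4.17%) did not overlap between 4 and 4 libraries. In sums over cells, more cells with a transcript and more transcript per cell cannot be told apart. The gene with the lowest p was Adgrl2, an adhesion receptor, with 16.97, 22.7, 35.7 and 22.3 CPM in Eµ-TCL1 spleens and 6.19, 3.42, 1.77 and 6.60 CPM in Eµ-PRMT5/TCL1 spleens (log2 −2.39 ± 0.44, adjusted p = 0.594). Hras (19.1 against 50.2 CPM) and Laptm5 (229 against 512 CPM) were lower and the translation regulator Bzw2 (60.3 against 29.0 CPM) higher in Eµ-PRMT5/TCL1 spleens without overlap, also at an adjusted p of 0.594.

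Prmt5 was at 31.3 ± 3.71 CPM (SD, n = 4) in cycling cells of Eµ-PRMT5/TCL1 and 21.5 ± 4.48 CPM in those of Eµ-TCL1 spleens, without overlap, a log2 difference of 0.45 ± 0.21 with an adjusted p of 0.739. In non-cycling cells the difference was 0.19 ± 0.19. Myc differed by 1.19 ± 0.46 (185 ± 175 against 70.8 ± 26.8 CPM, adjusted p = 0.695) with overlap between the groups, where Eµ-PRMT5/TCL1 spleen 4 had 442 CPM and the other spleens of its group 51.3 to 138 CPM. Cd69 differed by 1.38 ± 0.52 (adjusted p = 0.695), where Eµ-PRMT5/TCL1 spleen 4 alone had 222 CPM. Among the lists, 27 of 30 genes of the Myc and ribosome list had a higher mean log2 level in Eµ-PRMT5/TCL1 spleens (median 0.41 against 0.00 over all genes) and 19 of 20 immediate early genes (median 0.84), none of them called. Other lists leaned in either direction, also without a call. Of glycolysis genes 12 of 13 were higher (median 0.37). Of pro-B and pre-B genes 0 of 10 were higher (median −1.66), and of plasma cell genes 1 of 9 (median −0.41). How far Eµ-PRMT5/TCL1 spleen 4 set these medians was not tested. In lymph nodes the counts were 27 of 30 for the Myc and ribosome list (median 0.30) and 5 of 20 for immediate early genes (median −0.31), also with none called.

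In lymph nodes 1 of 10745 genes passed (0.00931%), and 694 had an unadjusted p under 0.05. Of the genes tested 960 (8.93%) did not overlap. The gene that passed was Adgrl2, with 27.95, 22.5 and 31.7 CPM in Eµ-TCL1 nodes 1 to 3 and 0, 2.52 and 0.465 CPM in Eµ-PRMT5/TCL1 nodes 1, 2 and 4 (log2 −4.65 ± 0.64, adjusted p = 0.030, and 2.3e-06 in DESeq2, which called 13 genes). The groups were far apart, and the direction was that of the spleens of the same mice. The fit of the 15 libraries had no term for the mouse. Its estimate of spread thus took nodes and spleens of the same 6 mice as independent, which limits the adjusted p. The call was lost when cycling cells needed 3 rule genes (adjusted p = 0.076), when Cd3g was left out of the gate (0.054), and without each of Eµ-TCL1 nodes 1 and 3 and Eµ-PRMT5/TCL1 nodes 1 and 4, where 0 genes were called. In non-cycling cells of the nodes the difference was −3.88 ± 0.99 (adjusted p = 0.639), and whether cycling cells differed from the other B cells in this was not tested. Prmt5 (0.31 ± 0.24) and Myc (0.08 ± 0.53) were not called in lymph nodes.

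Between the tissues of the same mouse, 8 of 9408 genes were lower in cycling cells of the lymph node in 3 Eµ-TCL1 mice (0.085%), while 31.5% of the genes had 1 direction in all 3 mice. They were Chil3, Hbb-bs, Prtn3, Elane, Camp, Ngp, Mpo and Anxa1, which are mostly genes of granulocytes and red cells. In 3 Eµ-PRMT5/TCL1 mice 21 genes passed (0.223%) and 24.7% had 1 direction in all 3. Of the 21 genes, 17 were lower in the node and again mostly such genes. The 4 that were higher in the node were the metallothioneins Mt1 (1361 against 196 CPM) and Mt2, the calcium channel Itpr2 and the adhesion gene Epcam (30.2 against 6.40 CPM). Without barcodes with erythroid or granulocyte-monocyte UMIs none passed in either genotype by edgeR, with 482 and 479 genes at an unadjusted p under 0.05. The change between cycling and non-cycling cells itself was not shown to differ between the 2 genotypes in spleens: of 12132 genes 0 passed the test of the interaction (0.0%) in edgeR and in DESeq2, and 314 and 153 had an unadjusted p under 0.05.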

How the data were processed

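Cells of spleens and sub-mandibular lymph nodes were captured by the authors with Chromium 3′ v2 chemistry. Per the labels, Cell Ranger 2.0.1, Seurat 2.2.1 and GRCm38 were used by the submitters, while the headers of the deposited matrices name version 3.1.0. The deposited values are whole-number counts of UMIs for 31053 genes per barcode, not filtered for cells and not normalized. Of the gene IDs 30934 were matched to GENCODE vM21.

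UMIs were summed per library and state, scaled to CPM, and fitted by edgeR 4.0.16 (R 4.3.3; TMM scaling, quasi-likelihood test, Benjamini-Hochberg adjustment over all tested genes), with the library as a block between states and the mouse as a block between tissues. Fits between genotypes within 1 state held both tissues and had no term for the mouse. The SE was derived from the log2 value and its F statistic. The 11 genes of the rule were left out after library sizes had been set. DESeq2 1.42.0 was an alternative. Shares and ratios were compared over libraries by exact permutation (Python 3.11.15, scipy 1.17.1, numpy 2.4.6). Intervals are 95% Wilson intervals and, like all errors from counts, cover counting error only. The 20 libraries came from 13 mice. Libraries under 20 cycling cells were not fitted. Scrublet (scanpy 1.11.5) served as an alternative only. It marked under 0.5% of barcodes in 5 of 9 libraries of over 5000 barcodes and did not work there.

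Tested on simulated data, the comparison of states in spleens (9884 genes) recovered 69% of 2-fold and 100% of 4-fold changes with 4 false calls, and that of Eµ-PRMT5/TCL1 against Eµ-TCL1 spleens (8851 genes) 31% and 95% with 8 false calls. The simulation gave every gene the same spread between libraries. Its genotype fit held only the spleens of these groups, while the reported fit held all 15 libraries. These rates therefore do not measure what the reported fits could find in the real data.

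Named genes were, between states, the 12 highest and 12 lowest log2 values among genes with an adjusted p under 0.05, at least 20 CPM in the higher state and 1 direction in every spleen (no immunoglobulin or unnamed genes), the 4 most abundant members of each of the 19 lists, and Prmt5, Myc, Cd5, Cd69 and Ighm. Between groups they were up to 8 called genes per direction without overlap. Other genes named between groups, such as Hbb-bs, Camp and Ngp between tissues, were chosen after their values were seen. Other list members were singled out after their values were seen. The members and lists were chosen with earlier results of these data known. Same-mouse deviations in the 2 tissues correlated at 0.192 to 0.466 in 6 pairs, and the mouse numbers come from the sample titles. Some genes are not reported here.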

Additional observations from a re-analysis of the deposited data

Results flagged for a closer look

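In 6 of 30 groups of 4 or 5 libraries the highest or lowest library stood apart from the others by Dixon's 95% criterion, which chance alone meets in about 1 of 20 groups. In Eµ-PRMT5 spleens this was library 4, with 70.8% of B cells cycling before and 23.3% after thinning. In Eµ-PRMT5/TCL1 spleens it was library 4 for the thinned share, at 9.13%, and for Cd69 in cycling cells, at 222 CPM, and library 2 for Cd5 in cycling cells, at 8.56 CPM. In Eµ-TCL1 spleens it was library 3, where the share of the leading Ighv gene was −34.2 percentage points in cycling minus non-cycling cells.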

How the results depend on the processing

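Of the summary values 175 kept direction and size under an alternative, 32 moved, 1 newly passed its threshold and 22 reversed, all of the last differences that had not passed a test. The tissue difference of the share became 1.07 points with 1 rule gene, 0.0115 without Scrublet doublets, 0.120 without erythroid or granulocyte-monocyte barcodes and 0.391 with Cd3g free, an alternative chosen after seeing the data, as was fitting every library with a cycling cell. The node share difference between genotypes was −0.0117 with Cd3g free and −0.00987 with the replicate block, and the node S to G2/M ratio difference 0.046 thinned and 0.061 with Cd3g free. The leading Ighv difference in spleens was −0.920 counted over cells and −0.872 for Igkv. Called genes between states were 1585 (spleens) and 926 (nodes) after thinning, where fewer genes were tested, and 1556 and 802 without the library block. For the thinned fits and the thinned S to G2/M ratio the states were those set before thinning. Between genotypes, calls in spleens were 8 with DESeq2 and 2 with Xist as a covariate, and in nodes 13 and 5, 2 with no filter, and 0 with 3 rule genes, with Cd3g free and with the replicate block. Same-numbered libraries of the 2 genotypes correlated at −0.0218 to 0.130 in spleens and −0.206 to −0.0791 in nodes, so they share only a number, and the replicate block left 0 calls in spleens too. Between tissues, calls were 4 with DESeq2 and 113 with no filter in Eµ-TCL1 mice, 253 with no filter in Eµ-PRMT5/TCL1 mice, and 0 in both without erythroid or granulocyte-monocyte barcodes and without the mouse block. Where not stated, the cause was not tested.

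Leaving out 1 library at a time, the share difference ran from −2.67 (without Eµ-PRMT5 spleen 4) to 3.53 for Eµ-PRMT5 against Eµ-TCL1 spleens, −2.60 to 3.69 for Eµ-PRMT5/TCL1 against Eµ-PRMT5, −0.682 to 2.62 for Eµ-PRMT5/TCL1 against Eµ-TCL1 spleens, −0.307 to 1.78 in nodes and −0.562 to 0.548 between tissues. The node S to G2/M difference ran from −0.11 to 0.11 and the leading Ighv difference in spleens from −1.11 to 6.28 (without Eµ-TCL1 spleen 3). Calls between genotypes in nodes ran from 0 to 3, between tissues from 0 to 12 (Eµ-TCL1; 0 without the mouse of node 1 and 2 without that of node 2) and 8 to 42 (Eµ-PRMT5/TCL1; 42 without the mouse of node 1, 12 without that of node 2 and 8 without that of node 4), and for the interaction from 0 to 1.

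Of named genes in spleens, Ighm was 0.12 without erythroid or granulocyte-monocyte barcodes, Bax −0.014, Bst2 −0.031 and Trp53 −0.0057 after thinning, and Xbp1 −0.066 and Lgals1 −0.19 without the library block. In nodes, Ly6d was −0.022 with DESeq2, −0.026 with no filter and −0.023 with 3 rule genes, Xbp1 0.17 and Cd5 0.098 after thinning, Gadd45b 0.0088, Xbp1 0.049 and Cdkn1a 0.090 without the block, and Cdkn1a 0.16 with Cd3g free. Without 1 library, spleen values ran from −0.24 to 0.090 (Gbp2), −0.17 to 0.039 (Ighm) and −0.10 to 0.13 (Lgals1), and node values from −0.17 to 0.064 (Odc1), −0.33 to 0.16 (Xbp1), −0.065 to 0.24 (Ly6d), −0.10 to 0.032 (Cd5), −0.15 to 0.053 (Cdkn1a), −0.26 to 0.020 (Ccnd3), −0.0037 to 0.22 (Lgals1), −0.26 to 0.048 (Gadd45b) and −0.045 to 0.15 (Ighm). For genes of low count, depth limits what can be told: libraries with few cycling cells hold few UMIs of each.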
